A study of Mus musculus with 12 samples.

Results

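Between the oocyte and the 2-cell stage, 44 of the 11298 genes analysed made up the transcripts gained in wild-type (WT) mouse embryos. A gene belonged to them when its mean over the 2 WT 2-cell libraries was at least 5 FPKM and this mean plus 1 was at least 4 times both the WT oocyte mean plus 1 and the WT 1-cell mean plus 1. Symbols starting with Rpl or Rps and 7 further genes, among them Mt1, Mt2 and Pramel6, were set aside, and 5 of those had met the thresholds. The genes were thus chosen by the WT values of all 3 stages, which are given below as a description, and the tests rest on the knockout (KO) libraries or on the WT replicate that had no part in choosing a gene. FPKM are fragments per kilobase of transcript, relative to the mapped fragments of a library. The table had no value below 1 FPKM, called the floor here. A gene at the floor had a level of 1 FPKM or less on the deposited scale. Each embryo column was multiplied by 1 factor per library before the floor was applied. Before that factor the floor was 1 FPKM in oocyte columns, 1.81 to 4.71 in 1-cell columns and 7.68 to 8.61 in 2-cell columns. A gene at the floor in an embryo library could thus have a level above 1 FPKM before the factor.

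The 12 libraries came from C57BL/6 mice labelled Pabpn1l-WT or Pabpn1l-KO and were made by Smart-seq2, which copies polyadenylated RNA from an oligo-dT primer. Each genotype had 2 libraries of germinal vesicle (GV) oocytes, collected in vivo, 2 of 1-cell embryos and 2 of 2-cell embryos, both cultured in KSOM medium, with 10 oocytes or embryos in a library. The labels give neither the hours of collection, nor the mating scheme that would tell a maternal from an embryonic KO, nor whether the libraries in a group came from different animals. The p-values therefore measure the spread between these libraries, which may be technical. Pabpn1l, the targeted gene, measured 220.1 and 203.9 FPKM in WT against 7.23 and 4.98 in KO oocytes. At the 1-cell stage its values were 16.4 and 12.2 in WT against 2.57 and 4.55, and at the 2-cell stage all 4 libraries were below 2 FPKM, so it checks the labels of the first 2 stages and not those of the 2-cell libraries. Of 30 measured oocyte-specific genes, 0 were at the floor in oocytes of either genotype, and their sum ran from 31738 to 34559 FPKM there. At the 2-cell stage the sum was 2205 and 2248 FPKM for WT against 4259 and 4395 for KO. The 6 measured cumulus and granulosa markers summed to 6.15 to 7.07 FPKM in the 2-cell libraries, where a sum of 6 means the floor in every gene. FPKM carry no read counts, and the depth of the libraries is unknown.

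A growing mouse oocyte stores messenger RNA, stops transcription before it matures, and after fertilization clears much of the stored RNA by shortening poly(A) tails. Transcription starts again from the embryo's genome in a minor wave in the 1-cell embryo and a major wave at the 2-cell stage, and transcripts that appear at this time are mostly products of the new genome. Pabpn1l (also called ePABP2) encodes a protein that binds poly(A) tails in the oocyte and the early embryo and takes part in the clearance of maternal mRNA. Obox homeodomain proteins, named from oocyte-specific homeobox genes, bind promoters and repeats that become active in the 2-cell embryo.

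Of the 44 genes, 34 are annotated by RefSeq (GRCm38.p6) as protein coding, 6 as long non-coding RNA and 4 as transcribed pseudogenes. Symbols matched directly for 39 and through a synonym for 5, such as Crxos1 (now Crxos) and H47 (now Selenos). A few lie near each other. On chromosome 7, Obox6 is separated from Obox3 by 5 annotated genes and from Crxos1 by 1, and on chromosome 8 Rab20 and Ankrd10 have 4 genes between them. The deposited values were made on build mm9, so gene coordinates from the newer build are not given except for the sequences themselves.

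RefSeq promoter windows of 300 bases, from 250 before to 50 after the start, were found for 36 of the 44 genes. The letters GGATTA, which the Obox, Crx and Otx class of homeodomains recognises, were searched on both strands and stood in the windows of 6 of 36 genes (16.7%), against 7.28% of the 9033 genes of the table with a window and 8.14% of all 27025 genes with one. The stretches around these letters, 40 bases to either side, are shown because Obox3 is itself among the genes gained and among those with the letters. They are written 5′ to 3′ in the direction of the gene, with the matching letters in capitals (GGATTA or, read on the other strand, TAATCC), from RefSeq on GRCm38.p6.
D17Ertd648e (chr17:11883250-11883335, minus strand): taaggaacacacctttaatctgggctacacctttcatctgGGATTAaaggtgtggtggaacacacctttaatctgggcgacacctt
Obox3 (chr7:15639900-15639985, minus strand): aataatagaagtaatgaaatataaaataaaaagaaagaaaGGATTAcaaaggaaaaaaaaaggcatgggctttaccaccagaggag
Prps1 (chrX:140456537-140456622, plus strand): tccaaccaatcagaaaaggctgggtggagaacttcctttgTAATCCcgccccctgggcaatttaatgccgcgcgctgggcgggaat
Cd63 (chr10:128909139-128909224, plus strand): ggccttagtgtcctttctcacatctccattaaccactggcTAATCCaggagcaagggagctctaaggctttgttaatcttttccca
Guca1a (chr17:47400618-47400703, minus strand): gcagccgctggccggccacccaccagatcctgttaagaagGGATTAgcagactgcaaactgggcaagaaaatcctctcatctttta
Alppl2 (chr1:87089962-87090047, minus strand): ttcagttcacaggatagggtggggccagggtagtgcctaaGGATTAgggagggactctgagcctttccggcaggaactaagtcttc
The matches began 168 bases before the start in Obox3, 166 in Cd63, 106 in D17Ertd648e, 79 in Alppl2, 57 in Guca1a and 26 in Prps1. CCAAT, the box of NF-Y, stood in 17 of the 36 windows (47.2%, against 43.9% of the genes of the table), TATAAA in 5 (13.9% against 9.58%) and CCGGAA, a core of Ets factors such as GABPA, in 9 (25% against 31%). GGGCGG, the GC box of Sp factors, stood in 16 (44.4%), a smaller share than the 65.2% of the genes of the table, and the median GC content of the windows was 52.2% against 60%. CACGTG stood in 4 (11.1% against 11.8%), GAANNTTC, in which N is any base, in 3 (8.33% against 7.28%), AAGATGGC in 1 (2.78% against 5.45%) and TGACGTCA in none (3.53% of the genes of the table), and the sites of DUX and NRF1 were not found in any of the 36. These are counts of letters in short windows and were not tested. The window of 2310039L15Rik, the most abundant of the 44, is shown whole because it holds CCAAT, here read on the other strand as ATTGG in capitals, 25 bases before the start.
2310039L15Rik (chr10:95336026-95336325, plus strand): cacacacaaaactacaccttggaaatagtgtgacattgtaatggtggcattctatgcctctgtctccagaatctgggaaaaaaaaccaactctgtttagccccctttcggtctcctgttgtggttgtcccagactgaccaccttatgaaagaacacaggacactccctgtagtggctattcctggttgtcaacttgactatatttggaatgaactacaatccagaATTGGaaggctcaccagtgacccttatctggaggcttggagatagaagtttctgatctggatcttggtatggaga

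In WT 2-cell embryos the 44 genes had means between 7.17 and 393 FPKM, with a median of 23.0. A small number of them stood far above the rest. The non-coding RNA 2310039L15Rik measured 270.3 and 516 FPKM in the WT 2-cell libraries, Dcdc2c, which encodes a doublecortin-domain protein, 223 and 427, and Gm7102 191 and 373. Another non-coding RNA, D17Ertd648e, measured 112 and 162 FPKM. Together these carried 49.1% and 57% of the summed FPKM of the 44 genes in the 2 libraries. The whole group summed to 1620 and 2594 FPKM, or 3.03% and 4.37% of the table's sum in those libraries, against 0.0224% and 0.0275% in WT oocytes and 0.0375% and 0.0498% in WT 1-cell embryos. WT replicate 2 was the higher library for 41 of the 44 genes, with a median ratio of 1.35 to replicate 1, against 1.14 over 5563 genes above the floor in both.

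**Figure D1:**
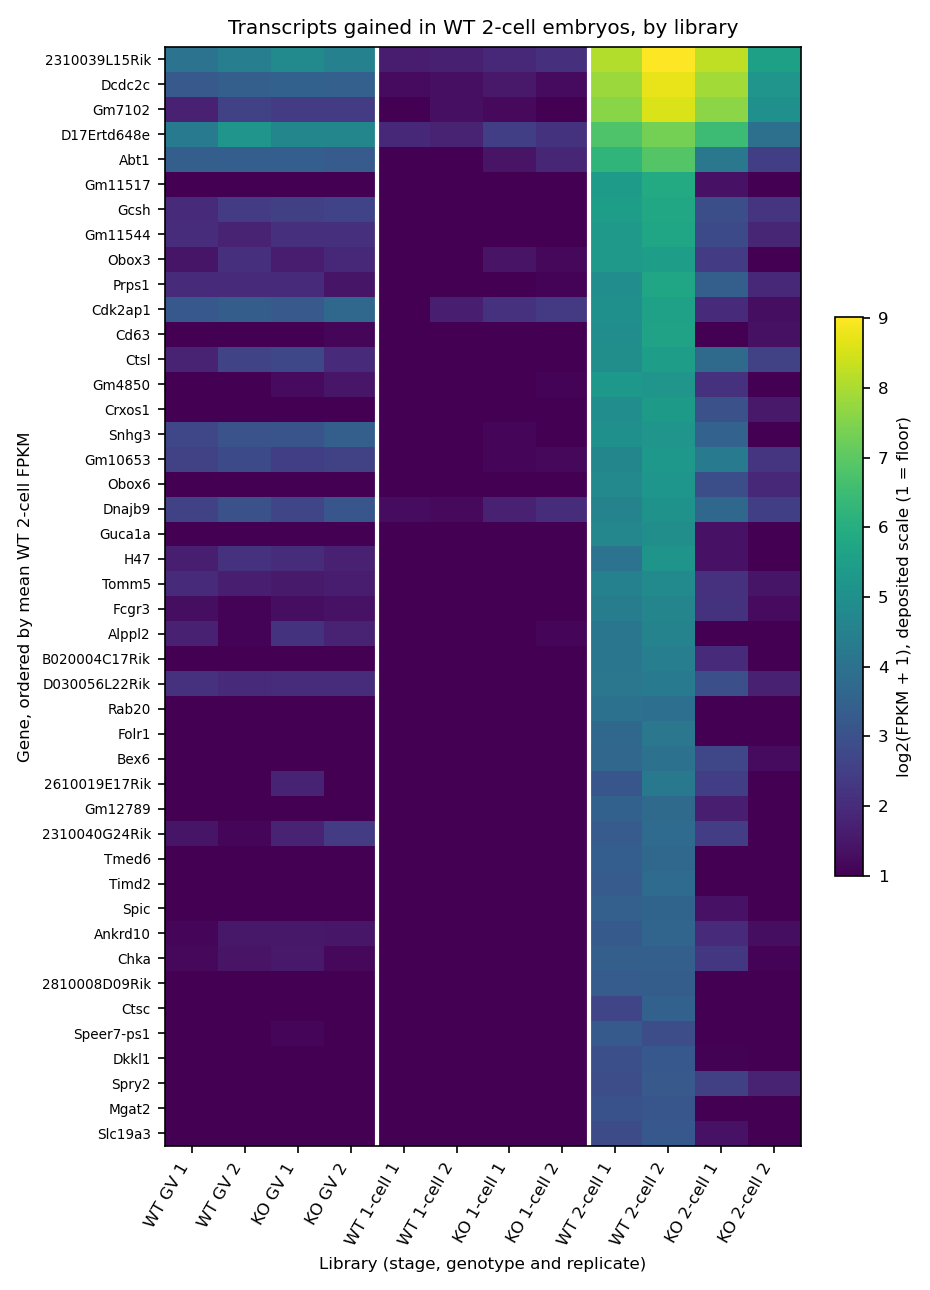
Heat map of log2(FPKM + 1) on the deposited scale for the 44 genes (rows, ordered by mean WT 2-cell FPKM) in the 12 libraries (columns). The WT 2-cell columns are bright from top to bottom, the 1-cell columns are dark in both genotypes, and KO 2-cell replicate 1 is brighter than replicate 2.

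Before the 2-cell stage many of the 44 genes were at the floor, and the rule asks for WT oocyte and 1-cell values that are low beside the 2-cell mean. Both WT 1-cell libraries were at the floor for 38 genes and both WT oocyte libraries for 20, where 39.6% and 5.65% of all genes were. In 18 genes all 8 oocyte and 1-cell libraries of either genotype were at the floor, among them Gm11517, Obox6, Crxos1, Guca1a, Rab20 and Spry2. On the deposited scale 24 genes were above the floor in WT oocytes and lower in WT 1-cell embryos. The rule itself asks for their later rise. D17Ertd648e, for example, measured 18.7 and 34.9 FPKM in WT oocytes and 2.77 and 2.40 in WT 1-cell embryos. Abt1, a nucleolar activator of basal transcription, measured 9.65 and 9.63 FPKM in WT oocytes, stood at the floor in both WT 1-cell libraries and measured 74.6 and 115 in WT 2-cell embryos. Several of the 24 were near the floor in oocytes, such as Gm4850, at the floor and 1.03 FPKM. Prps1, at 2.89 and 2.98 FPKM in WT oocytes, lay below the WT 1-cell floor before the factor (3.71 and 4.71). So did the WT oocyte means of most of the 24, Gcsh (3.61) and Tomm5 (2.56) among them. For such genes a fall from the oocyte cannot be measured on that scale. KO oocytes carried a like pattern, with 18 genes at the floor in both libraries, as did KO 1-cell embryos, with 30. Of all genes 6.12% and 23.3% were. The highest mean among KO 1-cell embryos was 4.04 FPKM, in D17Ertd648e.

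**Figure D2:**
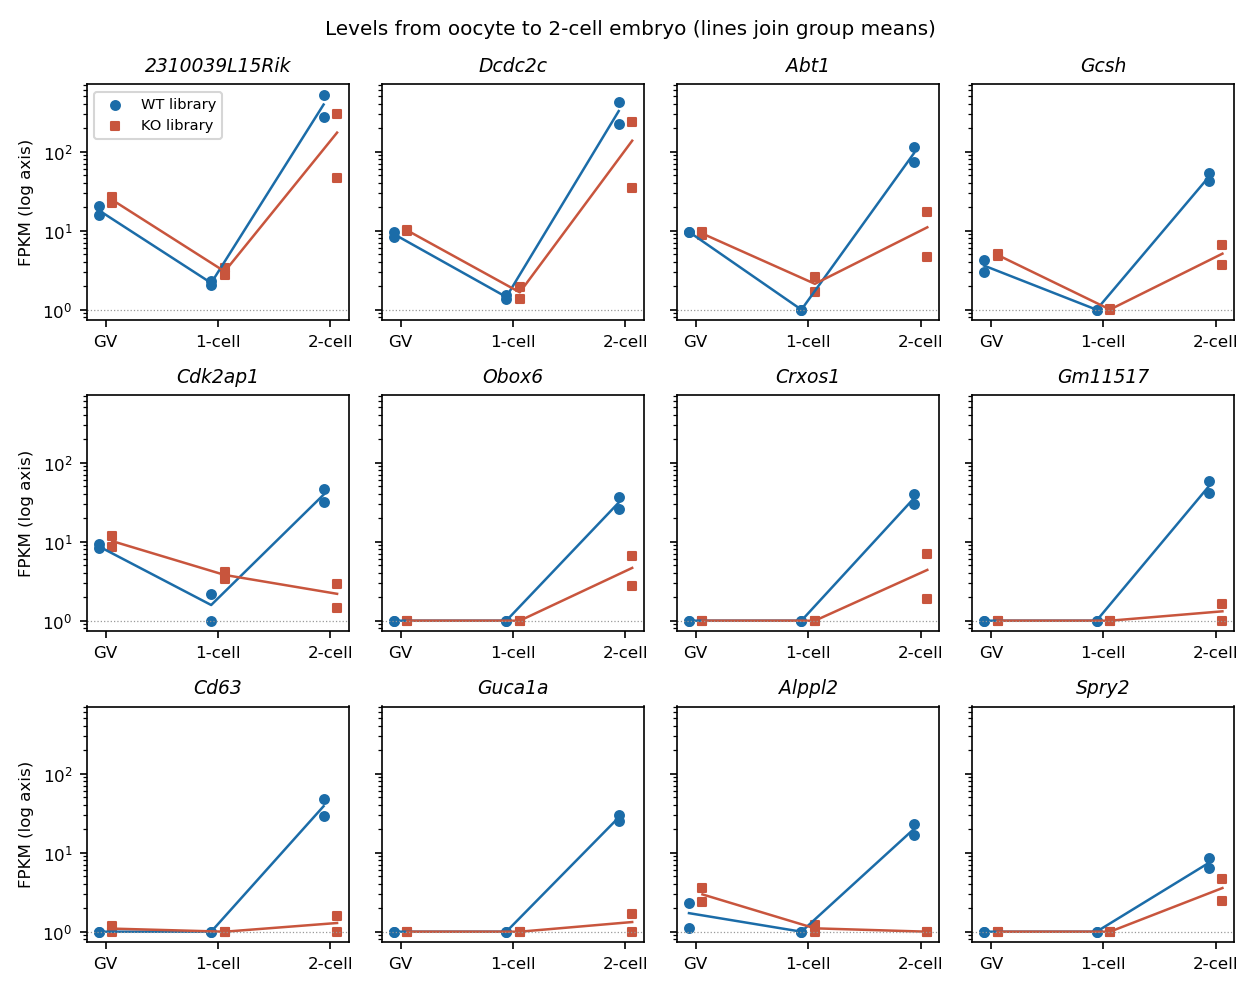
FPKM (log axis) of 12 of the genes in GV oocytes, 1-cell and 2-cell embryos, with 1 point per library (WT circles, KO squares), lines through the group means of 2 libraries and a dotted line at the floor of 1 FPKM. WT means end highest at the 2-cell stage in every panel, and the KO squares lie well below the WT circles for Gm11517, Cd63, Guca1a and Alppl2 while for 2310039L15Rik and Dcdc2c KO replicate 1 lies among the WT circles and KO replicate 2, at 45.7 and 35.0 FPKM, lies well below them.

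KO 2-cell embryos held less of these transcripts. The KO 2-cell mean was below the WT mean for 44 of 44 genes, and for 41 both KO libraries lay below both WT libraries, which held for 24.7% of all genes. The median difference of the group means on the log2(FPKM + 1) scale was −2.35, against 0 over all genes, with a range from −4.47 in Gm11517 to −0.89 in Spry2. Because high WT values chose the genes, these counts are a description. Each library pooled 10 embryos, so fewer embryos with a transcript and less of it in each embryo cannot be told apart. The 3 genes with overlapping groups were 2310039L15Rik, Dcdc2c and Gm7102.

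Regulators of transcription included 3 homeobox genes. Obox3 measured 38.9 and 44.2 FPKM in the WT 2-cell libraries, and 4.38 FPKM and the floor in the KO libraries. Obox6, another Obox gene, measured 26.2 and 36.2 FPKM in WT against 6.55 and 2.75 in KO. Crxos1, a homeobox gene on the opposite strand of Crx, measured 29.8 and 40.6 FPKM in WT against 6.88 and 1.89 in KO. In these 3 genes the KO libraries did not overlap the WT ones and replicate 1 was the higher KO library. Abt1 measured 17.4 and 4.65 FPKM in KO against the 74.6 and 115 of WT. Cdk2ap1, a subunit of the NuRD chromatin remodelling complex, measured 31.6 and 46.9 FPKM in WT against 2.93 and 1.45 in KO. Spic, an Ets-family transcription factor known from red pulp macrophages, measured 9.95 and 11 FPKM in WT, against 1.65 FPKM and the floor in KO. The snoRNA host transcripts differed in the same direction, Snhg3 with 31.6 and 35.4 FPKM in WT against 10.4 FPKM and the floor in KO, and 2810008D09Rik (now Snhg20) with 9.14 and 9.19 against the floor in both.

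Among enzymes, Gcsh, the lipoyl-carrying H protein of the mitochondrial glycine cleavage system, measured 42.8 and 53.2 FPKM in WT against 6.55 and 3.68 in KO 2-cell embryos. Prps1, which makes the phosphoribosyl pyrophosphate used in nucleotide synthesis, measured 29.7 and 51.7 FPKM in WT against 9.77 and 2.82 in KO. Alppl2, an alkaline phosphatase of early mouse embryos, measured 16.6 and 23.2 FPKM in WT and was at the floor in both KO libraries. All 4 values of each of these genes separated by genotype. Mgat2, an N-glycan branching enzyme, was at 7.08 and 7.75 FPKM in WT and at the floor in KO. Chka, a choline kinase, was at 9.64 and 9.65 FPKM in WT against 3.88 and 1.12 in KO. Tomm5, a subunit of the mitochondrial import channel, measured 21.9 and 26.8 FPKM in WT against 3.42 and 1.73 in KO.

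A set of lysosomal and secretory-pathway genes also belonged to the 44. Cd63, a tetraspanin of late endosomes and lysosomes, measured 29.4 and 47.9 FPKM in WT 2-cell embryos, and the floor and 1.58 FPKM in KO. Of the lysosomal cysteine proteases, Ctsl measured 30.2 and 43.5 FPKM in WT against 12.5 and 4.95 in KO, and Ctsc 5.45 and 10.3 in WT and the floor in both KO libraries. Cd63 was the 1 gene of the 44 in which KO replicate 2 exceeded KO replicate 1. H47, which encodes selenoprotein S of the degradation pathway of the endoplasmic reticulum, measured 15.5 and 34.1 FPKM in WT, against 1.63 FPKM and the floor in KO. Dnajb9, a co-chaperone of the same compartment, differed less, with 23.0 and 32.9 FPKM in WT against 11.8 and 4.66 in KO. Tmed6, a cargo receptor of the p24 family, and Rab20, a small GTPase, were both at the floor in KO 2-cell embryos, with WT values of 9.55 and 12.2 FPKM and of 15.2 and 14.1.

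Genes of the cell surface and of signalling included Folr1, a folate receptor, with 11.8 and 16.9 FPKM in WT 2-cell embryos and the floor in both KO libraries. Timd2, a receptor for ferritin in mouse, measured 8.76 and 12.9 FPKM in WT and was likewise at the floor in KO. Fcgr3, a low-affinity Fc receptor of leukocytes, measured 19.5 and 23.9 FPKM in WT against 3.52 and 1.36 in KO. Of 9 measured blood and immune markers 7 were at the floor in both WT 2-cell libraries, and the sum of the list was 9.18 and 9.36 FPKM there against 11.5 and 13.4 in KO. Guca1a, a calcium sensor of photoreceptor guanylate cyclase, measured 25.4 and 30.3 FPKM in WT, against 1.65 FPKM and the floor in KO. Spry2, an antagonist of receptor tyrosine kinase signalling, had the smallest difference of the 44, with 6.37 and 8.50 FPKM in WT against 4.67 and 2.46 in KO. Dkkl1, a Dickkopf-like protein, and the thiamine transporter Slc19a3 were near the lower limit of the group, at 6.70 and 8.28 FPKM and at 6.13 and 8.21 in WT, with KO values of 1.05 and 1.64 FPKM in replicate 1 and the floor in replicate 2.

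Transcripts without a well-known role made up much of the remainder. Gm11517, a transcribed pseudogene, showed the largest difference, with 41.7 and 58.9 FPKM in WT 2-cell embryos, and 1.63 FPKM and the floor in KO. Gm4850, also a pseudogene, measured 37.9 and 35.5 FPKM in WT, against 3.42 FPKM and the floor in KO. Gm11544 measured 38.8 and 52.6 FPKM in WT against 5.96 and 2.64 in KO. Gm10653, another pseudogene, stood out with a smaller difference, at 24.6 and 38.0 FPKM in WT against 19.2 and 3.56 in KO. The other 8 genes, among them Bex6, Ankrd10, Gm12789 and the non-coding 2610019E17Rik, had KO means between 10.8% of the WT mean, in B020004C17Rik, and 25.6%, in D030056L22Rik.

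How reads were shared between copies limits several of these values. In GENCODE vM21 transcripts, 26 of the 43 genes that could be checked had no stretch of at least 150 bases at 95% identity or more with another gene, including 2310039L15Rik, Dcdc2c, Abt1, Gcsh, Guca1a, Alppl2 and Spry2. For 7 genes at least 50% of the transcript was shared. These were Cdk2ap1 (98.3%, with Gm12184), Speer7-ps1 (88.1%), Gm7102 (83.1%, with 38 other genes), Snhg3 (81.1%), Obox6 (77.5%, with a pseudogene), Gm11517 (74.7%) and Gm10653 (66.4%, in part with Rps2), and their levels are uncertain. Rps2 measured 37.5 and 33.7 FPKM in WT 2-cell embryos against 169 and 156 in KO, the opposite direction to Gm10653. Tmem92, which shares 46.9% of the Gm11544 transcript, measured 7.34 and 7.46 FPKM in WT against 1.62 and 1.17 in KO. No strand setting is given in the sources used here, so reads of Crxos1 and Crx cannot be told apart where they overlap. Crx measured 1.80 and 2.64 FPKM in WT against 2.83 and 4.26 in KO 2-cell embryos.

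Contrasts among the KO groups, whose values the choice of genes did not use, address whether these transcripts also increased from the KO oocyte or the KO 1-cell embryo to the KO 2-cell embryo. Linear models were fitted to log2(FPKM + 1) of all genes with limma, with Benjamini-Hochberg adjustment over all genes, and genes with an adjusted p under 0.05 are referred to as called. The spread came from all 12 libraries, WT included. Against KO 1-cell embryos 19 of the 44 genes were called higher in KO 2-cell embryos, where 0.646% of all genes were called higher, and 0 were called lower, where 60.7% were (0 of the 44 also at an unadjusted p under 0.05 in that direction). As 30 of the 44 were at the floor in both KO 1-cell libraries and could not be lower, nothing is read from that 0. Against KO oocytes 7 genes were called higher, where 0.443% of all genes were. These were 2310039L15Rik, Dcdc2c, Gm7102, Obox6, Crxos1, Bex6 and Spry2, and each was also called against KO 1-cell embryos. When the 6 KO libraries were fitted without WT, a fit added after the data were seen, 8 genes were called higher against KO 1-cell embryos and 4 against KO oocytes, where 0.301% and 0.239% of all genes were. The 8 were 2310039L15Rik, Gcsh, Gm11544, Ctsl and the 4 called against oocytes, which were Dcdc2c, Gm7102, Obox6 and Spry2. Both Cdk2ap1 and Alppl2 were called lower than in KO oocytes, in a contrast in which 84.4% of all genes were called lower.

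Gm7102 changed most among the KO libraries. It measured 4.28 and 4.39 FPKM in KO oocytes, 1.30 FPKM and the floor in KO 1-cell embryos, and 194 and 31.6 in KO 2-cell embryos. Both KO 2-cell libraries exceeded the other 4, and the rise was 3.90 ± 0.70 (SE) on the log2(FPKM + 1) scale against oocytes (limma adjusted p = 0.000485) and 5.22 ± 0.70 against 1-cell embryos (adjusted p = 0.000141). Dcdc2c behaved alike, at 10.1 and 9.92 FPKM in KO oocytes, 1.94 and 1.37 in KO 1-cell embryos and 239 and 35.0 in KO 2-cell embryos, with a rise of 3.08 ± 0.70 over oocytes (adjusted p = 0.00231). The rise of 2310039L15Rik over oocytes was 2.23 ± 0.70 (adjusted p = 0.0133), from 26.7 and 22.2 FPKM to 302 and 45.7. Obox6 was at the floor in the 4 earlier KO libraries and rose by 1.41 ± 0.28 (limma adjusted p = 0.000941 against oocytes), and Crxos1, also at the floor before, by 1.26 ± 0.37 (adjusted p = 0.00996). As the lower group was at the floor, these 2 differences have no fixed size in fold. Without the WT libraries in the fit 2310039L15Rik and Crxos1 missed the threshold against oocytes (limma adjusted p = 0.0909 and 0.0783).

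Other genes passed against the KO 1-cell embryo and not against the KO oocyte. D17Ertd648e measured 24.7 and 24.4 FPKM in KO oocytes, 4.56 and 3.51 in KO 1-cell and 90.1 and 14.5 in KO 2-cell embryos, with a difference of 2.91 ± 0.67 from the 1-cell stage (limma adjusted p = 0.00373) and of 0.55 ± 0.67 from oocytes (adjusted p = 0.462). For Abt1 the KO values were 9.48 and 8.85 FPKM in oocytes, 1.65 and 2.60 in 1-cell embryos, then 17.4 and 4.65 at the 2-cell stage. Its difference from the 1-cell stage was 1.72 ± 0.46 (adjusted p = 0.00831) and from oocytes 0.0045 ± 0.46 (adjusted p = 1). Without the WT libraries in the fit, D17Ertd648e and Abt1 missed the threshold against the 1-cell stage as well (limma adjusted p = 0.0558 and 0.0838). Cdk2ap1 took another course, with 8.46 and 11.8 FPKM in KO oocytes, 3.41 and 4.18 in KO 1-cell embryos and 2.93 and 1.45 in KO 2-cell embryos, a fall of −1.83 ± 0.31 from oocytes (limma adjusted p = 0.000342). Alppl2 fell from 3.52 and 2.40 FPKM in KO oocytes to the floor on the deposited scale (limma adjusted p = 0.00322). Both oocyte values lay below the KO 2-cell floor before the factor (7.68 and 8.25), so a fall cannot be measured on that scale. On values divided by the library factor, the fall of Cdk2ap1 had the opposite sign and did not pass (0.66, limma adjusted p = 0.117). Of the 44 genes 0 were then called lower and 19 higher than in KO oocytes, D17Ertd648e and Abt1 among the 19. Which genes passed against oocytes thus depended on the scale. The share of all genes called on that scale is not given, so these counts are not read as a result.

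**Figure D3:**
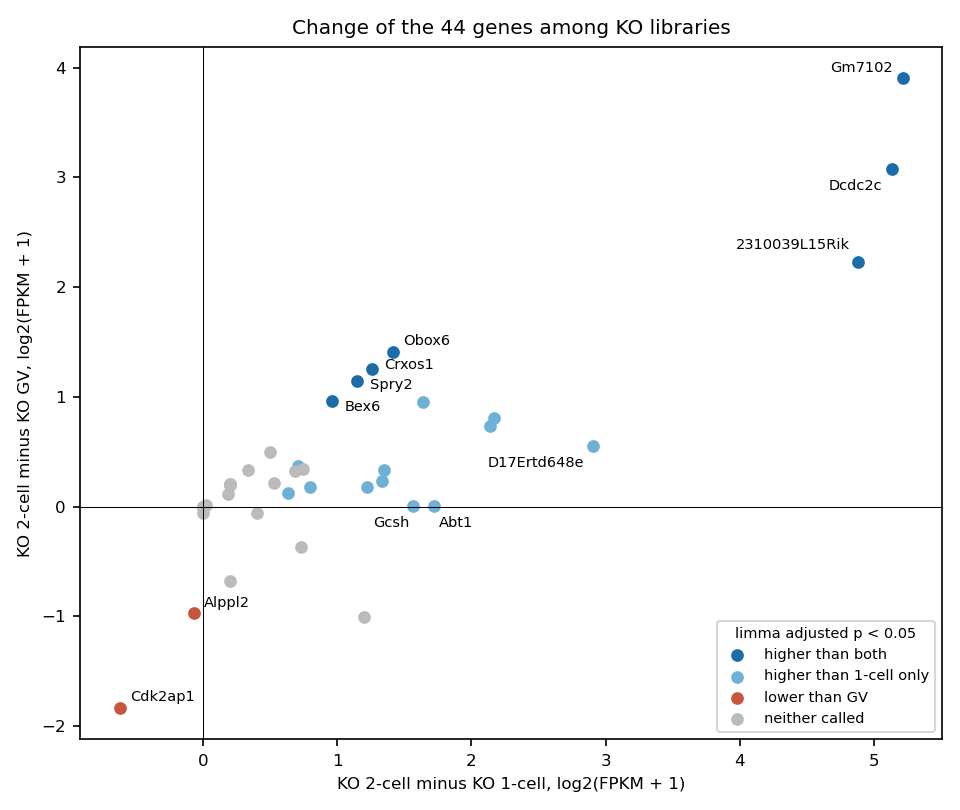
Difference of KO 2-cell embryos from KO 1-cell embryos (x axis) and from KO GV oocytes (y axis) in log2(FPKM + 1), with 1 point for each of the 44 genes coloured by limma calls at an adjusted p under 0.05. The 7 genes called higher in both lie at the upper right, 3 of them far out, and Cdk2ap1 and Alppl2 lie lowest among the genes called.

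To test KO against WT without the library that chose a gene, the rule was applied to WT replicate 1 alone, which 40 genes met, and KO was then compared with WT replicate 2 in a fit without WT replicate 1 of any stage. Of the 40 genes 25 were called lower in KO 2-cell embryos, where 7.23% of all genes were called lower, and 0 were called higher (0 also at an unadjusted p under 0.05). In the opposite arrangement 54 genes met the rule in WT replicate 2 alone, and 32 were called lower in KO than WT replicate 1, where 4.51% of all genes were, with 0 called higher (0 also at an unadjusted p under 0.05). The lone WT library of each fit is assumed to vary like the other groups, and both fits share the KO libraries. Of the called genes, 7 of the 25 and 11 of the 32 were at the floor in every remaining library but the lone WT 2-cell one, so the fit had no measured spread for them and their p is too small. Of the other genes, 18 of 33 and 21 of 43 were called lower. Among these, Gm11517, Guca1a, B020004C17Rik, Gm12789 and Spic had only KO 2-cell replicate 1 above the floor besides the lone WT 2-cell library. In the test against WT replicate 1 this also held for Dkkl1, Slc19a3 and Trim43a, and the list may not be complete. The p of all these genes may therefore be too small as well. In 1-cell embryos 0 of the 40 and 0 of the 54 genes were called in either direction, where 26.6% and 9.32% of all genes were called (0 and 1 at an unadjusted p under 0.05). The rule asks for low WT 1-cell values, and 27 of the 40 and 37 of the 54 were at the floor in every remaining 1-cell library and could not be called, so nothing is read from these counts. The difference between KO and WT was lower at the 2-cell stage than in oocytes for 19 of the 40 and 26 of the 54 genes by a test of the interaction (5.16% and 3.72% of all genes). For genes at the floor in all remaining oocyte libraries this estimate equals the 2-cell difference, so it is no separate evidence there. Genes without a measured spread, such as Rab20 and Folr1, are among those called. In oocytes the counts of KO against WT were 0 of 40 and 0 of 54, where 2.59% and 2.71% of all genes were called (1 and 0 at an unadjusted p under 0.05), and 15 and 25 genes were at the floor in all remaining oocyte libraries.

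Gm11517 had the largest difference in these tests, −4.71 ± 0.18 (SE) against WT replicate 2 (limma adjusted p = 0.000549) and −4.22 ± 0.18 against WT replicate 1 (adjusted p = 0.00105). Cd63 followed with −4.43 ± 0.17 and −3.75 ± 0.17 (adjusted p = 0.000637 and 0.0014). Guca1a gave −3.76 ± 0.18 and −3.52 ± 0.18, H47 −3.94 ± 0.22 and −2.85 ± 0.22, and Gm4850 −3.62 ± 0.51 and −3.71 ± 0.51, each called against either replicate. The small standard errors of Gm11517, Cd63 and Guca1a rest largely on KO libraries at or near the floor. They do not include the spread between the WT 2-cell libraries. Gm11544 was lower by −3.41 ± 0.42 and −2.98 ± 0.42, and Gcsh by −3.19 ± 0.32 and −2.88 ± 0.32 (limma adjusted p = 0.0114 and 0.0188). Alppl2, Rab20 and Folr1 were called too, with both KO libraries at the floor, and Rab20 and Folr1 are among the genes without a measured spread. These genes are named because they were called against each replicate, so they are examples and not a further test. Tomm5 was likewise called (−3.0 ± 0.31 and −2.72 ± 0.31).

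**Figure D4:**
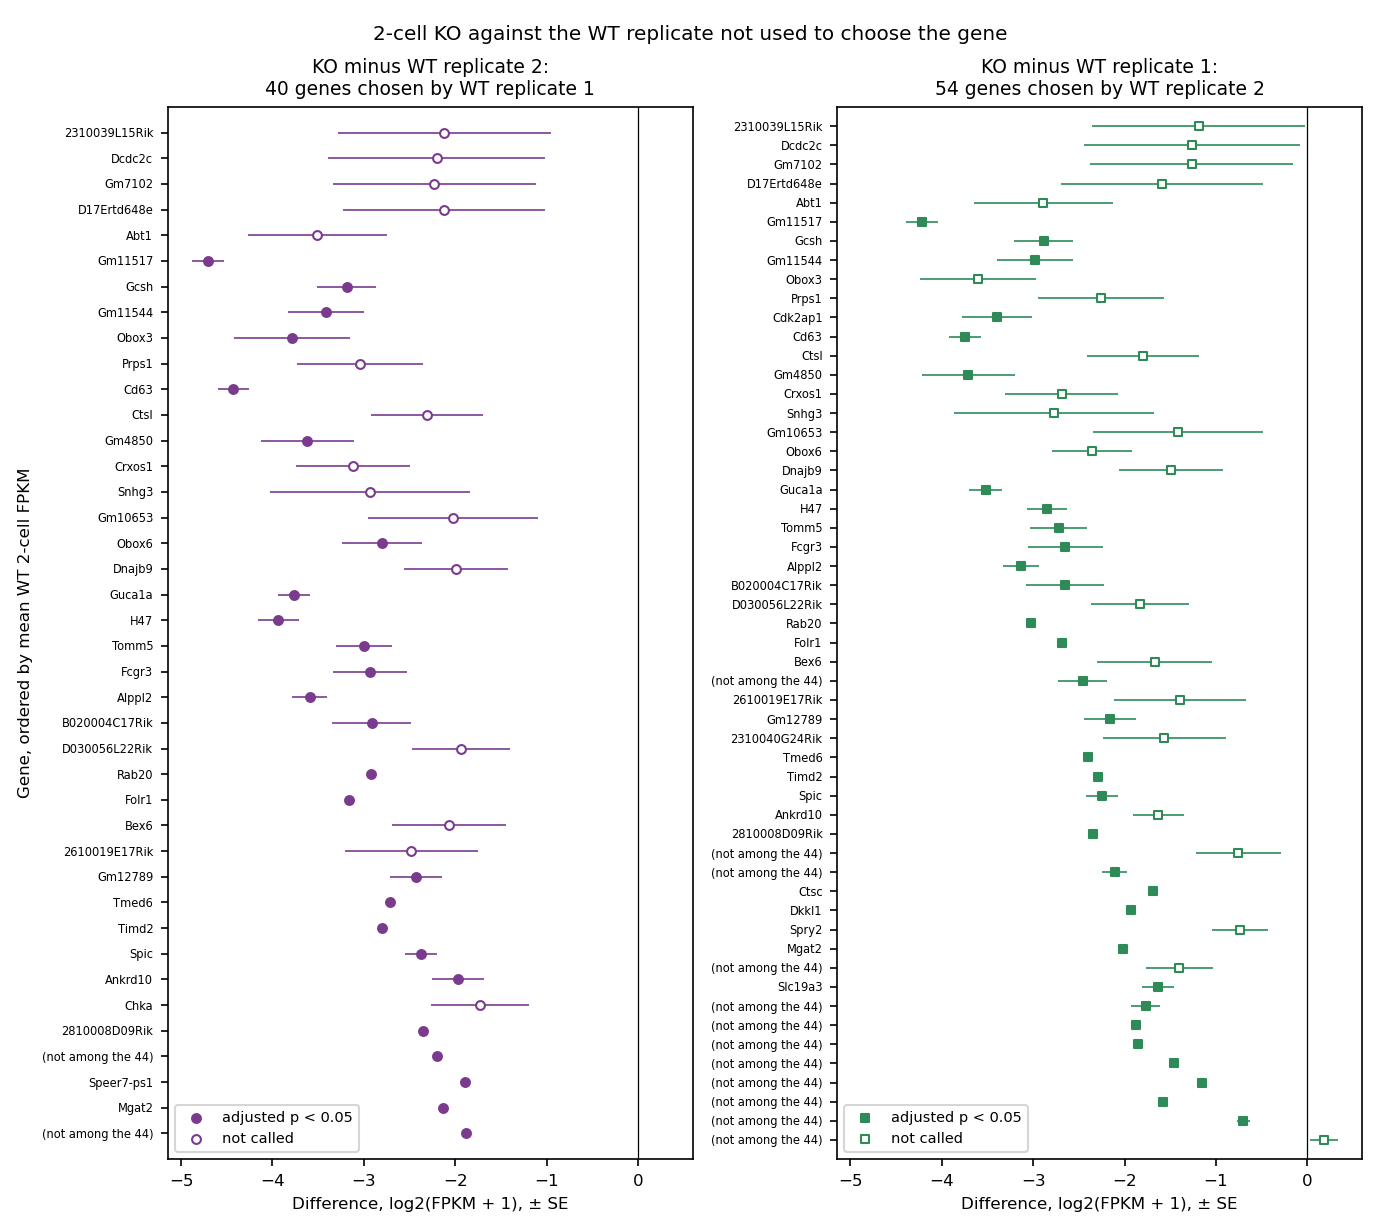
Difference of KO from the WT replicate that had no part in choosing the gene, at the 2-cell stage in log2(FPKM + 1) with its standard error, for the 40 genes that WT replicate 1 chose (left) and the 54 that WT replicate 2 chose (right), ordered by mean WT 2-cell FPKM. Filled points passed limma at an adjusted p under 0.05. Of the points, 40 of 40 and 53 of 54 lie left of 0, open points such as 2310039L15Rik and Dcdc2c at the top have wide error bars, and points with no visible bar have a small standard error, among them Rab20 and Folr1, which had no measured spread.

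Several abundant genes missed the threshold, and their standard errors were wide. For 2310039L15Rik the differences were −2.12 ± 1.16 and −1.19 ± 1.16 (SE, limma adjusted p = 0.48 and 0.934), and Dcdc2c, Gm7102 and D17Ertd648e were similar. Abt1 missed with differences of −3.51 ± 0.76 and −2.89 ± 0.76 (adjusted p = 0.074 and 0.133), Prps1 with −3.04 ± 0.69 and −2.26 ± 0.69 (adjusted p = 0.0832 and 0.182), and Crxos1 with −3.12 ± 0.62 and −2.69 ± 0.62 (limma adjusted p = 0.0612 and 0.102). Obox3 and Obox6 passed against WT replicate 2 (−3.79 ± 0.64, adjusted p = 0.0416, and −2.80 ± 0.44, adjusted p = 0.0344) and not against WT replicate 1 (limma adjusted p = 0.057 and 0.0636). Fits without 1 of the KO 2-cell libraries are not read here, as 1 KO library then meets 1 WT library at the 2-cell stage. Their spread comes from the oocyte and 1-cell libraries, where many of these genes were at the floor. The difference between the KO 2-cell libraries no longer counts in them.

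The 2 KO 2-cell libraries differed widely in these genes. Replicate 1 was higher in 34 genes, the libraries were equal at the floor in 9, and Cd63 was the exception. Of the 21 genes above the floor in both, 17 were at least 2 times as high in replicate 1, with a median ratio of 2.92 and a range from 1.78 in Gcsh to 6.84 in Dcdc2c. Over the 4485 genes of the table above the floor in both libraries the median ratio was 1.01, and 3.84% had a ratio of at least 2. Summed over the 44 genes, replicate 1 held 1007 and replicate 2 held 195 FPKM, or 1.59% and 0.305% of the table's sum, although the library factors (0.13 and 0.121) and the sums of all genes (63553 and 64092 FPKM) were alike. Relative to the WT mean the median gene stood at 16.2% in replicate 1 and 9.0% in replicate 2, in which 10 and 22 of the 44 genes were at the floor and their percentages are upper limits.

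The distance between the KO libraries depended on the gene. In replicate 1, 2310039L15Rik, Dcdc2c, Gm7102 and D17Ertd648e stood at 76.7%, 73.7%, 68.8% and 65.7% of the WT mean, and in replicate 2 at 11.6%, 10.8%, 11.2% and 10.5%. They carried 81.9% of the summed FPKM of the 44 genes in replicate 1 and 64.9% in replicate 2. Spry2, at 62.8% and 33.0%, was nearest to WT in the lower library. Gm11517 (3.24% and at the floor), Guca1a (5.93% and at the floor), H47 (6.55% and at the floor) and Cdk2ap1 (7.46% and 3.69%) were low in both. Both replicates exceeded every KO oocyte and 1-cell library in 7 genes, and 0.443% of all genes had both above. The calls among KO libraries depended on which KO 2-cell library was kept. Such fits leave 1 library in that group, and no counts are read from them. Transcripts of 28 oocyte-specific genes above the floor in both KO 2-cell libraries had a median ratio of 0.845 between replicate 1 and replicate 2, and their part in the difference was not tested.

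**Figure D5:**
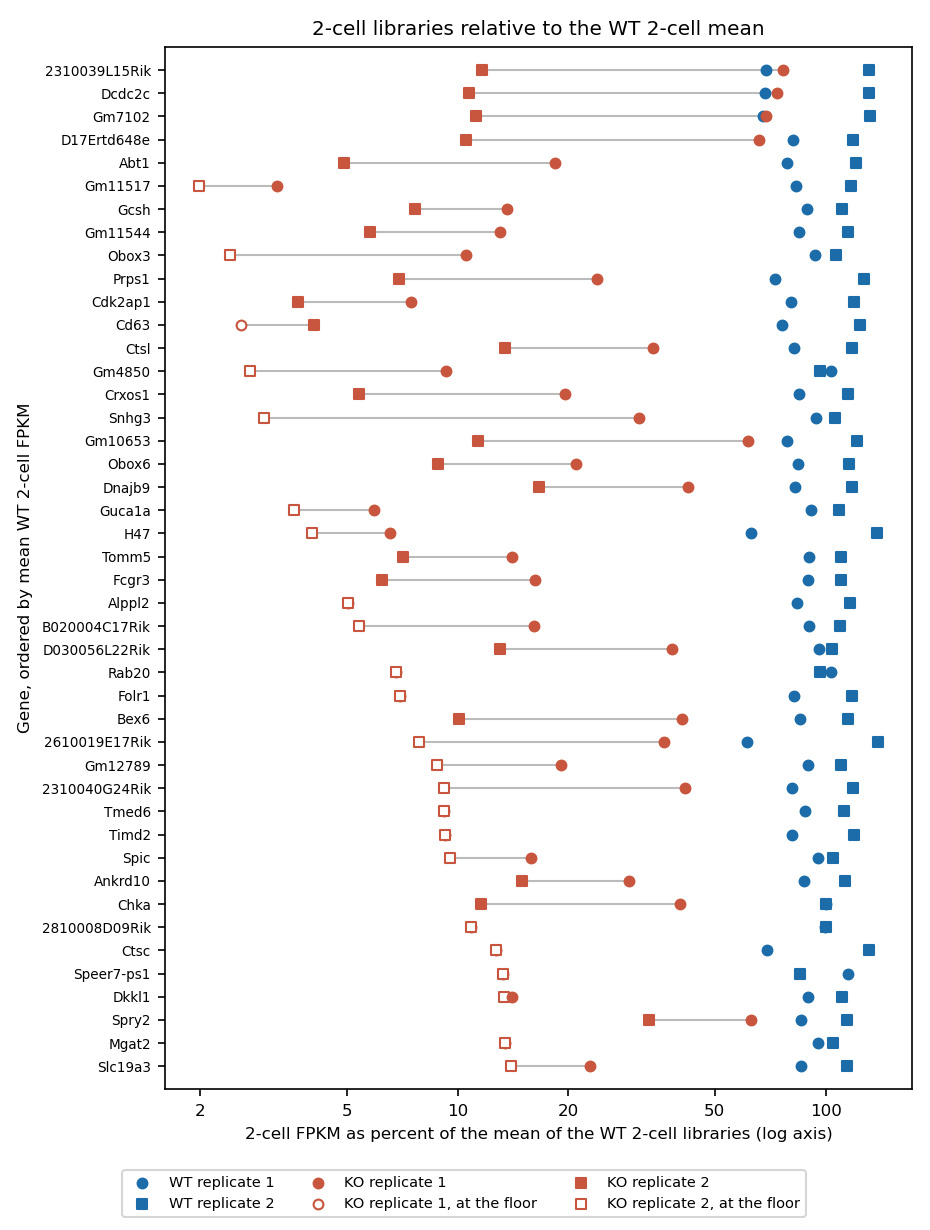
FPKM of each 2-cell library as a percent of the mean of the 2 WT 2-cell libraries (log axis) for the 44 genes, with WT in blue, KO in red, circles for replicate 1, squares for replicate 2 and open symbols for values at the floor of 1 FPKM; where both KO symbols are open they coincide. KO replicate 1 lies to the right of KO replicate 2 in all genes in which they differ except Cd63, and reaches the WT points for the 3 most abundant genes.

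Near the threshold of the rule, the genes just inside by the smaller of their ratios were Slc19a3 (4.09), Cdk2ap1 (4.14) and Mgat2 (4.21), and those just outside were Calcoco2 (3.98), Ficd (3.96) and Tex101 (3.94). Calcoco2, an autophagy receptor, and Tex101 were at the floor in KO 2-cell embryos, as Mgat2 was. The size of the group depends on the scale. On values divided by the library factor 216 genes met the rule, including all 44, since the factor of 0.116 and 0.123 in the WT 2-cell columns lowers them relative to oocytes.

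Of 23 lists of genes of related pathways and cell types, only the nucleotide synthesis list (Prps1) and the mitochondrial import list (Tomm5) held a gene of the 44. The list of 82 genes known for a transient peak at the 2-cell stage, such as the Trim43, Tdpoz and Usp17-like families, had 42 measured genes and 0 of the 44. Most of the 42 were below the WT 2-cell mean of 5 FPKM that the rule asks for, so nothing is read from that 0. Of the 42, 14 were called lower and 5 higher in KO than in WT 2-cell embryos in the fit of all 12 libraries, where 12% and 7.56% of all genes were. Fbxo15, an F-box gene of embryos and pluripotent cells, measured 27.9 and 37.8 FPKM in WT against 7.31 and 4.11 in KO (−2.36 ± 0.30 SE, limma adjusted p = 0.000567), and Trim43a 5.21 and 7.4 in WT, and 1.15 FPKM and the floor in KO. C87414 was higher in KO, at 45.9 and 52.3 FPKM against 12.5 and 12.1 (1.91 ± 0.23, adjusted p = 0.00042), and was abundant in KO oocytes, at 345 and 249.6 FPKM, where Trim43a was at the floor. On the list of nucleolar and ribosome biogenesis genes, 97 were measured and none is among the 44, and Abt1 is not on it. Of the 97, 48 were called lower and 4 higher. Fbxo15, Trim43a and C87414 were chosen for the text after their values were seen.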

How the data were processed

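The members of the group and all gene lists and motifs were chosen with earlier results of these data known. The authors deposited 1 table of FPKM values, made with TopHat2 2.1.1, Cufflinks 2.2.1 and build mm9 per the submitters' processing notes. It held 11298 complete genes and 1 incomplete last entry, which was left out. Its symbols run alphabetically and end at Zc3h14, so Zscan4 and other symbols that sort after it were not analysed here. Each embryo column was the product of a 6-digit FPKM value and 1 factor per library (1-cell 0.269 and 0.212 for WT, 0.432 and 0.552 for KO; 2-cell 0.116 and 0.123 for WT, 0.13 and 0.121 for KO), with the floor applied afterwards. The basis of the factor is not given in the sources used here, and the deposited scale was kept. ERCC spike-in values were not used here. Comparing FPKM between stages therefore rests on the authors' factor.

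Values were analysed as log2(FPKM + 1) with limma 3.58.1 in R 4.3.3, with 6 group means, an intensity trend and two-sided tests, in 1 fit of 12 libraries for contrasts among KO libraries and in fits of 9 libraries where a WT replicate was held out. This scale makes changes of low genes look smaller than they are. Promoter windows were RefSeq's, and shared transcript sequence was found with blastn 2.17.0 in GENCODE vM21. Genes named in the text were the 12 most abundant in WT 2-cell embryos, the 10 with the largest falls called in both held-out tests, the 5 nearest to WT, the 10 with the largest gain, members of a list, those at the threshold and those called lower among KO libraries. Others are described by role and were chosen after their values were seen. Alternatives were other scalings, a pseudocount of 5, a mean of at least 5 FPKM, no trend, the replicate number as a block leaving out each KO library and fitting the KO libraries only.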

Additional observations from a re-analysis of the deposited data

Results flagged for a closer look

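The difference between KO and WT was tested for a change between stages in the held-out fits, as the difference at the 2-cell stage minus that in oocytes. It was lower at the 2-cell stage for 19 of the 40 genes that WT replicate 1 chose (5.16% of all genes, limma adjusted p under 0.05) and for 26 of the 54 that WT replicate 2 chose (3.72%). In 15 of the 40 and 25 of the 54 genes all remaining oocyte libraries were at the floor. For these the estimate equals the 2-cell difference and is no separate evidence of a change between stages. Genes without a measured spread, such as Rab20 and Folr1, are among those called. Both fits share the KO libraries. No group had the 4 libraries that a search for single outlying libraries needs.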

How the results depend on the processing

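Of 153 alternative counts of called or chosen genes, 120 lay within 1.5 times the reported count. The number of genes gained was 86 at a fold of 2, 16 at a fold of 8 and 216 before the factor. Genes called higher in KO 2-cell embryos than in KO oocytes numbered 35 with quantile normalization, 16 with median-ratio size factors and 19 before the factor, and 4 to 25 when 1 library was left out (4 without either oocyte library). In the added fit of KO libraries only they numbered 4, and 8 against KO 1-cell embryos. Those called lower numbered 0 under each of those 3 scalings and 2 to 6 with 1 library left out. Against KO 1-cell embryos 31 were called higher with quantile normalization and 13 to 30 with 1 library left out, and 1, Cdk2ap1, was called lower with a mean of at least 5 FPKM, with 0 to 1 when 1 library was left out. In the held-out 2-cell tests a mean of at least 5 FPKM left 19 and 16 genes, of which 14 and 11 were called lower, and without 1 KO library the counts were 27 to 37 and 36 to 46, with 0 to 1 called higher against WT replicate 1 (1700013H16Rik, which is not among the 44). In oocytes 0 to 2 and 0 to 1 genes were called with 1 library left out, and in 1-cell embryos 1 was called against WT replicate 1 with a mean of at least 5 FPKM. The change between stages was called in 11 and 6 genes with that minimum, and in 15 to 35 and 21 to 41 with 1 library left out. The causes of these changes were not tested, except that a filter leaves fewer genes to test. A fit without 1 KO library leaves 1 library in its group. The share of all genes called under each alternative is not given, so none of these counts is read as a result about the 44 genes.

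Same-numbered replicates did not deviate together (Pearson's r of −0.40 to 0.17 between groups across genes), and the libraries were treated as unpaired. The labels do not say whether the numbers pair the libraries, and a correlation across genes cannot decide it. With the replicate number as a block, 16 and 21 genes were called lower in the held-out 2-cell tests in place of 25 and 32, and 7 and 18 were called higher in KO 2-cell embryos than in KO oocytes and KO 1-cell embryos. WT and KO 2-cell embryos had an r of −0.25, and with crossed numbers, added after the data were seen, 17 and 21 were called. There were 1769 alternatives for single genes, including genes called under neither setting. In 7 of them a gene that was called under the main or the alternative setting changed sign. Against KO oocytes these were Cdk2ap1 with quantile normalization (1.04), median-ratio size factors (0.56) and before the factor (0.66), Alppl2 with quantile normalization (0.018) and Abt1 without KO 2-cell replicate 1 (−0.85, against 0.86 without replicate 2). Against KO 1-cell embryos they were Cdk2ap1 with quantile normalization (1.04) and before the factor (0.91). FPKM give no depth, and levels under 1 FPKM on the deposited scale were not detectable.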

Other observations

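Among the 42 measured genes of the list with a transient peak at the 2-cell stage, 21 were at the floor in all WT oocyte and 1-cell libraries, and 19 of these were above it in WT 2-cell embryos. In KO 2-cell replicate 2, 18 of the 21 were at the floor and none exceeded 1.13 FPKM. In KO 2-cell replicate 1, 17 of the 21 were above the floor, and of the 19 above it in WT, 6 reached at least the WT mean. Gm8300 measured 6.29 and 6.75 FPKM in WT against 7.11 and 1.00 in KO, Gm2022 3.76 and 2.95 in WT and 5.75 and 1.13 in KO, and Gm5039 1.85 and 1.83 in WT and 7.05 and 1.00 in KO. Spz1, a transcription factor known from testis, measured 3.64 and 3.86 FPKM in WT, against 3.51 FPKM and the floor in KO. None of these 4 differences between genotypes passed limma in the fit of 12 libraries (adjusted p = 0.294, 1, 0.749 and 0.163). They were chosen after their values were seen.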
